A study of Mus musculus with 9 samples.

Results

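The genes described here are the glucocorticoid receptor gene Nr3c1 and 7 genes known as direct targets of the receptor, Zbtb16, Fkbp5, Tsc22d3, Per1, Sgk1, Klf9 and Errfi1. They were chosen by gene name from the tables of all 9 libraries, with their levels across the treatment groups already known, and they make up 8 of the 17179 genes listed in any library. All 8 were listed in every library and passed the filter on low values. Their own levels are therefore given as a description. The fit over all genes also covered them, and how many were past its threshold is printed without anything being read from it. The study measured mRNA by sequencing of aorta from C57BL/6J mice, without a genetic change named in the labels. The normal group (2 libraries) drank distilled water. The BAPN group (2 libraries) received 1 g/kg/day of BAPN, beta-aminopropionitrile, an inhibitor of the enzymes that cross-link collagen and elastin, given to induce aortic dissection. The TPA group (2 libraries) received the same BAPN and 50 ng/g/day of TPA, a phorbol ester called an AP-1 activator in the labels, injected into the peritoneum from day 1. The T-5224 group (2 libraries) received BAPN and 5 mg/kg/day of the AP-1 inhibitor T-5224, and the coQ10 group (1 library) BAPN and 10 mg/kg/day of coenzyme Q10, a carrier of mitochondrial electrons. Both were given by gavage from day 7 or 14. All mice were killed on day 28, and all 4 comparisons below share the 2 BAPN libraries. The T-5224 libraries carry different titles, 2 weeks for replicate 1 and 3 weeks for replicate 2. The labels give neither age, sex and hour of killing nor the mice behind each library, so the spread between libraries may be partly technical.

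The glucocorticoid receptor is a transcription factor that waits in the cytoplasm in a complex with heat shock chaperones. When it binds cortisol or corticosterone it moves to the nucleus and either binds DNA at palindromic response elements and raises transcription, or interferes with AP-1 and NF-kappaB at inflammatory genes. In the vessel wall it acts in smooth muscle, endothelium and immune cells, and its targets include feedback inhibitors of the receptor itself.

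Sgk1 and Tsc22d3 are shown first. A listed promoter of Sgk1 holds the letters of the receptor's palindromic element, while a listed promoter of Tsc22d3 holds only a part of them, the hexamer TGTTCT. RefSeq promoter windows (GRCm38.p6, from 250 bases before to 50 bases after a listed start) were found for 6 of the 8 genes, 15 windows in all. The palindromic element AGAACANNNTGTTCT, searched on both strands, was found in 1 of these 15 windows, which belongs to Sgk1, and in 0.00913% of all 32851 windows. It lies at chr10:21993701-21993715, with 174 bases between it and the listed start at 21993890. The hexamer TGTTCT, which is contained in the palindrome, was found on either strand in 4 of the 15 windows (Sgk1 and Tsc22d3) and in 19.0% of all windows. The AP-1 site TGACTCA was in 0 of the 15 windows and in 5.20% of all windows. Such matches are letters in a short window and say nothing of binding. The first stretch below is chr10:21993640-21993799, plus strand, with the palindrome in capitals, and the second is chrX:140600672-140600737, minus strand, with the hexamer in capitals.
Sgk1: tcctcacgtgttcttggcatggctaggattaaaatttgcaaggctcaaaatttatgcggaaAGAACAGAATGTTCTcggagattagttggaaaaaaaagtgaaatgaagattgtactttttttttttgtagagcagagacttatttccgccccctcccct
Tsc22d3: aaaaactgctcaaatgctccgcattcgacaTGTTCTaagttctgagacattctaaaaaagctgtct

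The values are FPKM, read fragments scaled for transcript length and library size, a level per length that can be compared between genes. Depth is unknown. The libraries listed 13982 to 16204 genes, and haemoglobin genes made up 1.25% and 1.03% of summed FPKM in the normal libraries, 68.9% and 74.1% with BAPN, 69.4% and 69.2% with TPA, 40.8% and 11.2% with T-5224 and 5.40% with coQ10. Smooth muscle markers of the aorta were present in every library, with a summed FPKM of 729 to 18750 and none of the 8 genes at 0. Markers of neighbouring organs set some libraries apart within a group. Normal replicate 1 held 18050 FPKM of airway and 10170 of cardiac markers, against 39.9 and 51.7 in normal replicate 2. T-5224 replicate 2 held 7705 FPKM of skeletal muscle, 4263 of airway and 19100 of white adipocyte markers, against 16.2, 20.4 and 1106 in T-5224 replicate 1. Fabp4 alone gave 18726.32 and 1057.31 FPKM of these adipocyte sums. Adipoq, Cidec and Retn were also higher in T-5224 replicate 2, while Plin1 and Lep were lower. Adrenal cortex, where glucocorticoids are made, was nearly absent: its 8 markers summed to 1.67 to 4.92 FPKM, and Cyp11b1, Cyp11b2 and Hsd3b1 were at 0 in all 9 libraries.

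Nr3c1, the receptor itself (chromosome 18, 39410545 to 39519421), was highest in normal aorta and lowest with BAPN. Its level was 22.25 and 23.26 FPKM in the normal libraries and 6.71 and 7.97 with BAPN. It was 12.27 and 11.88 with TPA, 18.83 and 13.20 with T-5224, and 19.00 with coQ10. As deposited, the ranges of the 5 groups did not overlap, in the order normal, coQ10, T-5224, TPA, BAPN. The mean was 3.10 times higher in the normal group than in the BAPN group. In bulk tissue, fewer cells of a type and less RNA per cell cannot be told apart.

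**Figure D1:**
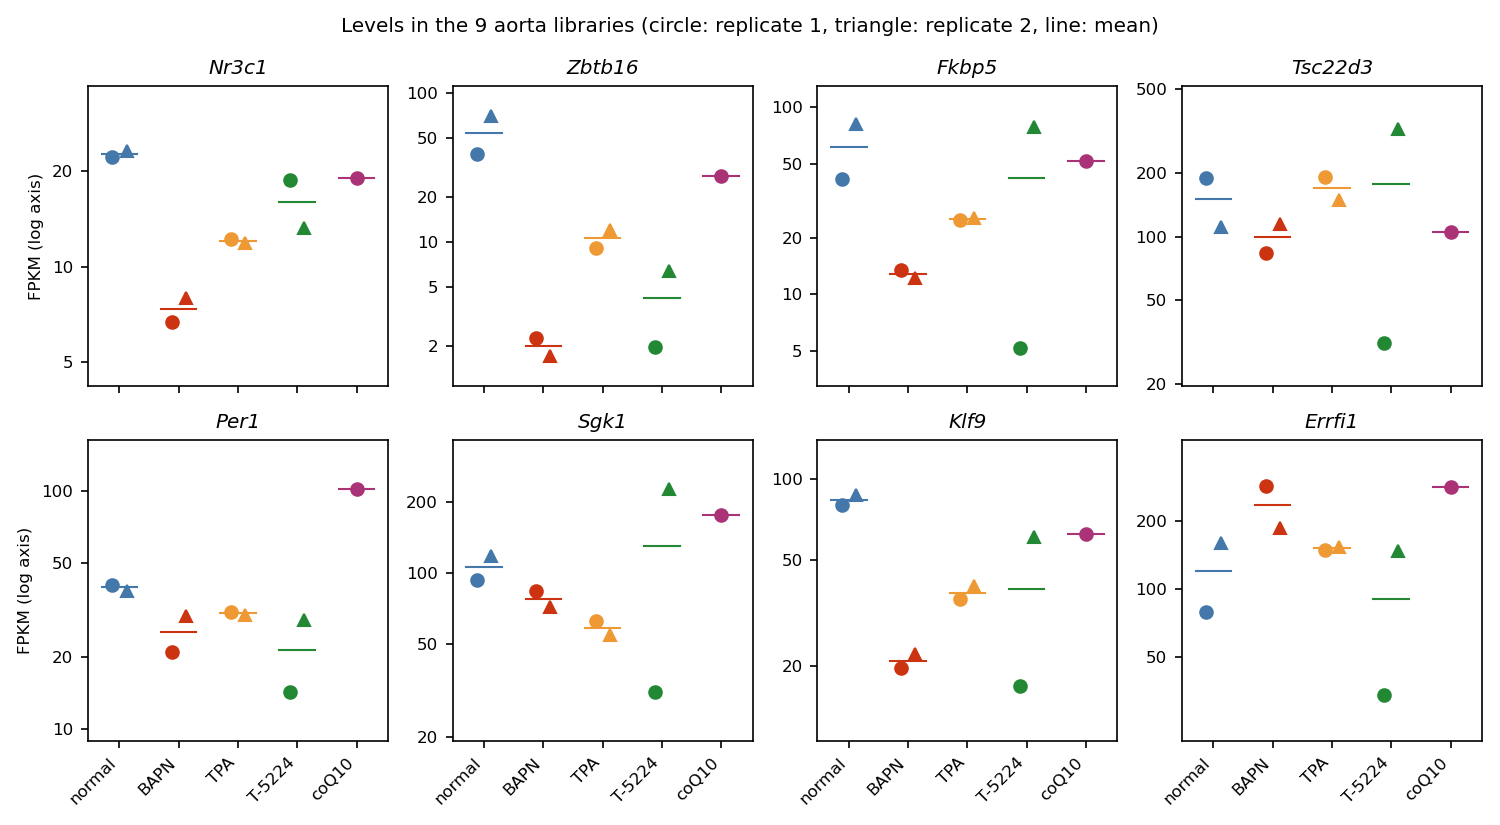
FPKM of the 8 genes (log axis, 1 panel per gene) in each library of the 5 groups; circles are replicate 1, triangles replicate 2, and lines group means. Nr3c1, Zbtb16, Fkbp5 and Klf9 are low in both BAPN libraries, and the 2 T-5224 libraries lie far apart for Fkbp5, Tsc22d3 and Sgk1.

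Zbtb16 (chromosome 9, 48651797 to 48836225), a zinc finger transcriptional repressor also called PLZF, had the widest range of the 8 genes, 40.7-fold between the lowest and highest library. It stood at 39.00 and 70.00 FPKM in normal aorta and at 2.28 and 1.72 with BAPN. TPA libraries held 9.17 and 12.01, T-5224 libraries 1.97 and 6.42, and the coQ10 library 27.70. Normal, coQ10 and TPA were apart from each other and above the rest, while the T-5224 and BAPN ranges overlapped. The normal mean was 27.2 times the BAPN mean. Within the tested genes of each library, Zbtb16 stood at the 82.3 and 91.0 percentile in normal aorta and at the 21.3 and 14.9 percentile with BAPN.

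Fkbp5 and Tsc22d3 act as brakes. Fkbp5 (chromosome 17, 28398753 to 28486149) encodes a co-chaperone that lowers the receptor's affinity for hormone. Its level was 41.48 and 81.12 FPKM in normal aorta, 13.54 and 12.25 with BAPN, 24.86 and 25.61 with TPA, 5.18 and 78.61 with T-5224, and 51.79 with coQ10. Only the BAPN and TPA ranges were apart among neighbours in the order of means, the coQ10 library lay within the normal range, and the T-5224 libraries spanned all of the others but 1 normal library. Tsc22d3 (chromosome X, 140539528 to 140600522) encodes GILZ, an anti-inflammatory mediator that binds AP-1 and NF-kappaB. It measured 189.43 and 111.74 FPKM in normal aorta, 83.63 and 115.07 with BAPN, 191.42 and 148.83 with TPA, 31.40 and 324.06 with T-5224, and 105.65 with coQ10. For Tsc22d3 the normal and BAPN ranges overlapped, and both the lowest and the highest of the 9 libraries were T-5224 libraries.

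Klf9 and Per1 are transcriptional regulators. Klf9 (chromosome 19, 23141226 to 23168129), a Krüppel-like factor, was at 79.74 and 86.74 FPKM in normal aorta, 19.82 and 22.22 with BAPN, 35.64 and 39.75 with TPA, 16.96 and 60.88 with T-5224, and 62.23 with coQ10. Normal, coQ10, TPA and BAPN were apart in that order for Klf9, and the T-5224 libraries fell on both sides of BAPN. Per1 (chromosome 11, 69095108 to 69109965), a repressor in the circadian clock, was at 40.48 and 38.19 FPKM in normal aorta, 20.94 and 29.94 with BAPN, 31.09 and 30.04 with TPA, 14.23 and 28.67 with T-5224, and 102.54 with coQ10. The coQ10 library held 2.61 times the normal mean of Per1, the TPA range lay just above the BAPN range, and the T-5224 and BAPN ranges overlapped.

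Sgk1 and Errfi1 act in signalling. Sgk1 (chromosome 10, 21882184 to 21999903), whose promoter holds the palindrome printed above, encodes a kinase that regulates ion channels and cell survival. It stood at 93.60 and 118.04 FPKM in normal aorta, 83.41 and 71.49 with BAPN, 62.13 and 54.22 with TPA, 31.03 and 227.84 with T-5224, and 175.90 with coQ10. TPA had the lowest mean of Sgk1, apart from BAPN and normal, and coQ10 was above both normal libraries. Errfi1 (chromosome 4, 150853796 to 150868889), an inhibitor of epidermal growth factor receptor signalling, ran the other way, at 79.59 and 160.17 FPKM in normal aorta, 285.92 and 187.63 with BAPN, 149.83 and 153.93 with TPA, 34.06 and 147.30 with T-5224, and 284.21 with coQ10. Errfi1 was higher in both BAPN libraries than in both normal libraries, the TPA range lay within the normal range, and the normal and T-5224 ranges overlapped.

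The comparison of BAPN with normal asks which levels moved in the disease model. Of the 8 genes, 6 lay lower in both BAPN libraries than in both normal libraries (Nr3c1, Zbtb16, Fkbp5, Per1, Sgk1 and Klf9), 1 lay higher (Errfi1) and Tsc22d3 overlapped. Among all 12997 tested genes, 51.1% lay lower without overlap and 15.0% higher. On the scale of log2(FPKM + 1), the difference of BAPN minus normal was -4.16 (SE 0.50) for Zbtb16, -2.09 (SE 1.06) for Fkbp5, -1.94 (SE 0.55) for Klf9 and -1.51 (SE 0.28) for Nr3c1. It was -0.63 (SE 0.38) for Per1, -0.56 (SE 0.98) for Tsc22d3, -0.44 (SE 0.82) for Sgk1 and 1.03 (SE 0.70) for Errfi1. Each SE was estimated from the spread within all groups of 2 libraries, including the T-5224 pair, and not from the groups compared alone. The median of the 8 was -1.07, beside -0.51 over all tested genes. In the fit with limma over all genes, Nr3c1 and Zbtb16 were past an adjusted p of 0.05, both lower, as were 2.36% of all genes, while 0.900% passed as higher; the choice of genes used this contrast, so nothing is read from that count. Both calls were lost when any 1 normal, BAPN or TPA library was left out. Without either T-5224 library more of the 8 passed, and so did many more of all genes. After rescaling to TPM 6 of the 8 passed, where 9481 of all genes passed as lower. Without normal replicate 1 the differences were -0.19 for Tsc22d3 and 0.53 for Errfi1. The direction of Tsc22d3 and Sgk1 depended on the scaling: with libraries scaled by the median of ratios their differences were 0.02 and 0.14. That of Per1 was -0.06, and after rescaling to TPM that of Errfi1 was -0.63. By the median of ratios only 4 of the 8 (Nr3c1, Zbtb16, Fkbp5 and Klf9) lay lower in both BAPN libraries than in both normal libraries. With haemoglobin left out of the sum 5 did, and with TPM 7 did. The share of all genes was not counted under these scalings. The larger haemoglobin share and the smaller smooth muscle marker sum with BAPN (1960 and 729 FPKM, against 6371 and 18750 in normal aorta) moved with these differences, and their part was not tested.

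**Figure D2:**
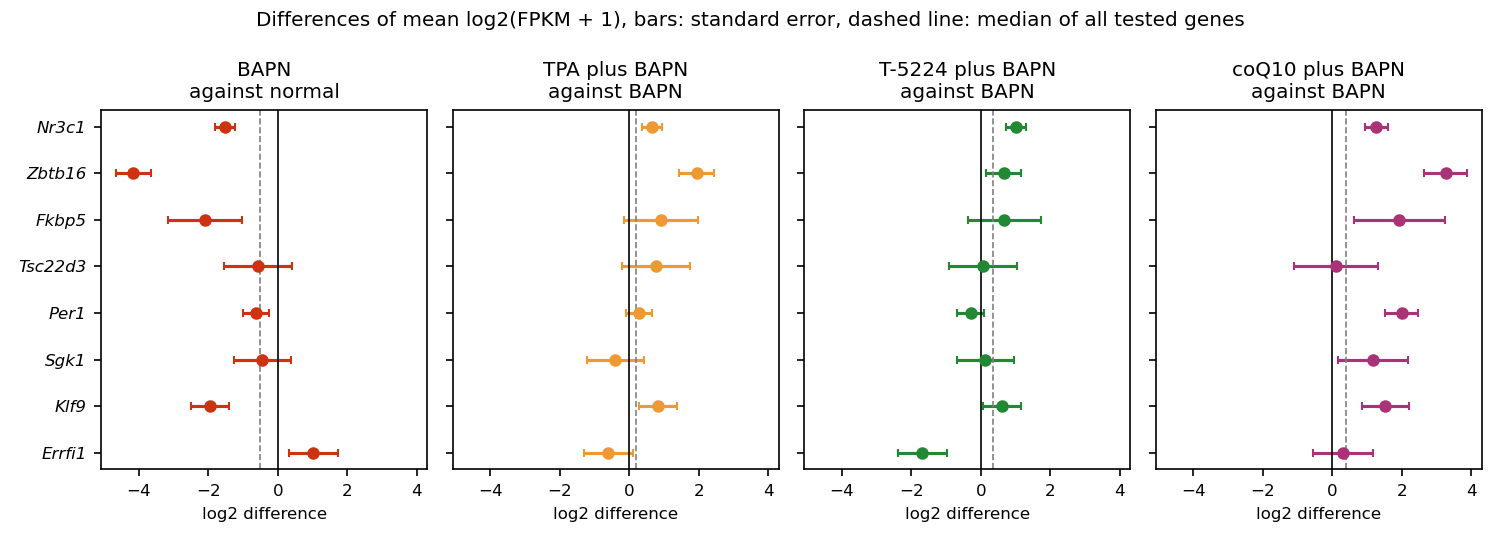
Difference of mean log2(FPKM + 1) for each of the 8 genes (rows) in the 4 comparisons (panels); bars are the standard error of the fit and the dashed line is the median of all tested genes. Zbtb16 has the lowest value with BAPN, -4.16, and the highest with coQ10, 3.26, while the error bars of Tsc22d3 cross 0 in all panels.

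The comparison of TPA plus BAPN with BAPN alone asks what the AP-1 activator added. Nr3c1, Zbtb16, Fkbp5, Tsc22d3, Per1 and Klf9, 6 of the 8 genes, were higher in both TPA libraries than in both BAPN libraries, and Sgk1 and Errfi1 were lower. Of all tested genes, 41.4% were higher without overlap and 21.2% lower. The largest of these log2 differences was 1.95 (SE 0.50) for Zbtb16, whose mean was 5.29 times the BAPN mean, followed by 0.92 (SE 1.06) for Fkbp5, 0.81 (SE 0.55) for Klf9, 0.78 (SE 0.98) for Tsc22d3 and 0.65 (SE 0.28) for Nr3c1. Sgk1 stood at -0.41 (SE 0.82) and Errfi1 at -0.61 (SE 0.70). These SE also hold the gap between the T-5224 libraries, which are not part of this comparison. For Fkbp5 replicate 2 minus replicate 1 was 3.69 log2 with T-5224, against 0.04 with TPA and -0.13 with BAPN. All 8 kept their sign in each of the 16 alternative settings. None of the 8 passed the limma threshold, which 0.0231% of all genes passed as higher and 0.0154% as lower. With only the groups compared 1 of the 8 passed, where 1032 of all genes passed in either direction. The haemoglobin share was about as high in TPA as in BAPN libraries, so it did not move with these differences. Squamous epithelium markers did, at 260.7 and 533.1 FPKM with TPA against 0.25 and 1.22 with BAPN, as did airway markers at 12690 and 4858 against 17.5 and 15.5. Cardiac markers were at 3197 and 817 FPKM against 24.1 and 47.2 and skeletal muscle markers at 7201 and 13080 against 2953 and 1506, and the part of these tissues was not tested.

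The comparison of coQ10 plus BAPN with BAPN rests on 1 coQ10 library, whose spread was taken from that of the replicated groups. Nr3c1, Zbtb16, Fkbp5, Per1, Sgk1 and Klf9, 6 of the 8 genes, were above both BAPN libraries, and Tsc22d3 and Errfi1 lay within the BAPN range. Of all tested genes, 59.6% were above and 24.1% below both BAPN libraries. The log2 differences were 3.26 (SE 0.61) for Zbtb16, 1.99 (SE 0.47) for Per1, 1.93 (SE 1.30) for Fkbp5, 1.52 (SE 0.67) for Klf9, 1.27 (SE 0.34) for Nr3c1 and 1.18 (SE 1.01) for Sgk1. The coQ10 library was above both normal libraries for Per1, Sgk1 and Errfi1 and below both for Nr3c1, Zbtb16, Tsc22d3 and Klf9. None of the 8 passed the limma threshold, which 0% of all genes passed as higher and 0.0154% as lower. With TPM 5 of the 8 passed as higher, as did 7206 of all 12997 genes, and with only the groups compared 3 did, where 1247 of all genes passed in either direction. TPM also gave larger differences, 3.32 for Fkbp5, 3.42 for Per1, 2.60 for Nr3c1, 2.95 for Klf9 and 2.64 for Sgk1, with a median of 1.64 over all genes against 0.39 as deposited. The haemoglobin share, 5.40% against 68.9% and 74.1%, moved with this comparison. So did smooth muscle markers, at 10490 FPKM against 1960 and 729, and neutrophil markers, at 101.5 against 1886 and 1074, and their part was not tested.

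Against BAPN, the T-5224 libraries gave no common direction for most of the genes. Nr3c1 was above both BAPN libraries, Errfi1 below both, and the other 6 of the 8 overlapped, while 34.2% of all tested genes lay above without overlap and 12.8% below. With haemoglobin left out of the sum Nr3c1 overlapped BAPN (34.46 and 13.56 against 13.22 and 17.05), and after rescaling to TPM Errfi1 did. The log2 difference was 1.01 (SE 0.28) for Nr3c1 and -1.69 (SE 0.70) for Errfi1. None of the 8 passed the limma threshold, which 0% of all genes passed as higher and 0.0308% as lower. For 5 of the genes the sign turned when T-5224 replicate 2 was left out. Fkbp5 went from 0.68 to -1.17, Tsc22d3 from 0.05 to -1.61, Sgk1 from 0.13 to -1.29, Klf9 from 0.60 to -0.29 and Zbtb16 from 0.65 to -0.01. With T-5224 replicate 1 left out instead, these differences were 2.52, 1.71, 1.55, 1.49 and 1.31. The haemoglobin share, 40.8% and 11.2% against 68.9% and 74.1%, and smooth muscle markers, at 12990 and 3157 FPKM against 1960 and 729, moved with this comparison, and their part was not tested.

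The 2 T-5224 libraries differed more in these genes than the 2 libraries of any other group. Their titles also differ, 2 weeks for replicate 1 and 3 weeks for replicate 2. What goes with the title and what goes with the library cannot be told apart. This comparison of 2 libraries has no replicate of its own and was made after the values were seen. All 7 targets were higher in T-5224 replicate 2 than in replicate 1, by 15.2-fold for Fkbp5, 10.3-fold for Tsc22d3, 7.34-fold for Sgk1, 4.33-fold for Errfi1, 3.59-fold for Klf9, 3.26-fold for Zbtb16 and 2.01-fold for Per1. Nr3c1 itself was lower, at 0.701 times its level in replicate 1. On the log2(FPKM + 1) scale 6 of the 8 genes were more than 1 higher in replicate 2, which held for 17.1% of all tested genes, and the median was 1.93 for the 8 genes and -0.06 for all. As deposited, none of the 8 differed by more than 1 on that scale in the normal, BAPN and TPA pairs, but under each of 3 other scalings 3 of the 8 did so in the normal pair and none in the BAPN and TPA pairs. All 7 targets stayed higher in T-5224 replicate 2 under these scalings. By the median of ratios 7 of them were more than 1 log2 higher, beside 19.1% of all tested genes. After rescaling to TPM 6 were, beside 13.7%. With haemoglobin left out of the sum 4 were, beside 9.03%. Under that last scaling Nr3c1 and 5492 of all 12997 genes were more than 1 log2 lower.

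Other genes known to be induced by glucocorticoids differed between the same libraries. Of 31 tested, 19 were more than 1 log2 higher in T-5224 replicate 2 and 4 were more than 1 lower, with a median of 1.83. Of all 12997 tested genes, 2218 were more than 1 higher and 2575 more than 1 lower, with a median of -0.06. With haemoglobin left out of the sum, 16 of the 31 were more than 1 higher and 6 more than 1 lower. Under that scaling 1173 and 5492 of all genes were. Ddit4, an inhibitor of mTOR signalling, stood at 14.20 and 332.13 FPKM in replicates 1 and 2. Glul, the glutamine synthetase gene, stood at 61.02 and 1177.75, and Klf15, a metabolic transcription factor, at 9.81 and 89.55. Per2, a clock gene on the same list, went the other way, from 44.65 to 3.37; these 4 genes were picked after their values were seen. Endothelial markers summed to 169 and 931 FPKM in the 2 libraries, adipocyte and muscle markers differed as given above, and smooth muscle markers ran the opposite way, at 12990 and 3157. The part of these cell types in the difference was not tested.

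**Figure D3:**
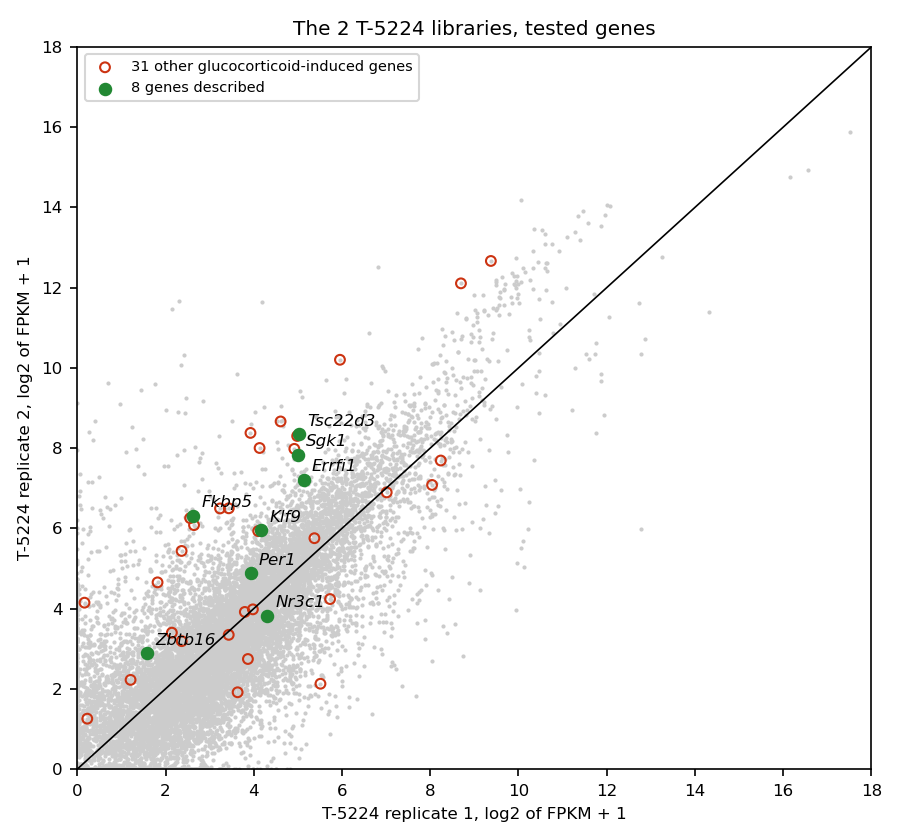
Level of each tested gene in T-5224 replicate 1 (x) and replicate 2 (y), as log2(FPKM + 1), with the line of equal values; filled points are the 8 genes and open circles the 31 other glucocorticoid-induced genes. The 7 targets lie above the line and Nr3c1 lies below it.

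Receptor mRNA and target level ran apart in the T-5224 libraries. The mean of the 7 targets, in log2(FPKM + 1), was 6.13 and 6.47 in normal aorta, 5.05 and 5.04 with BAPN, 5.58 and 5.58 with TPA and 6.51 with coQ10, which follows the order of Nr3c1 except that coQ10 stood above normal. T-5224 replicate 1 had the lowest target mean of all 9 libraries, 3.92, with Nr3c1 at 18.83 FPKM, and T-5224 replicate 2 had 6.21 with Nr3c1 at 13.20. Over the 9 libraries Pearson's r with Nr3c1 was 0.75 for Zbtb16, 0.66 for Klf9, 0.44 for Fkbp5, 0.36 for Per1, 0.14 for Sgk1, -0.06 for Tsc22d3 and -0.48 for Errfi1. Among targets, Fkbp5 and Klf9 were most alike, with r of 0.94, and Zbtb16 and Klf9 had r of 0.92. These r describe 9 libraries that share groups and scaling.

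**Figure D4:**
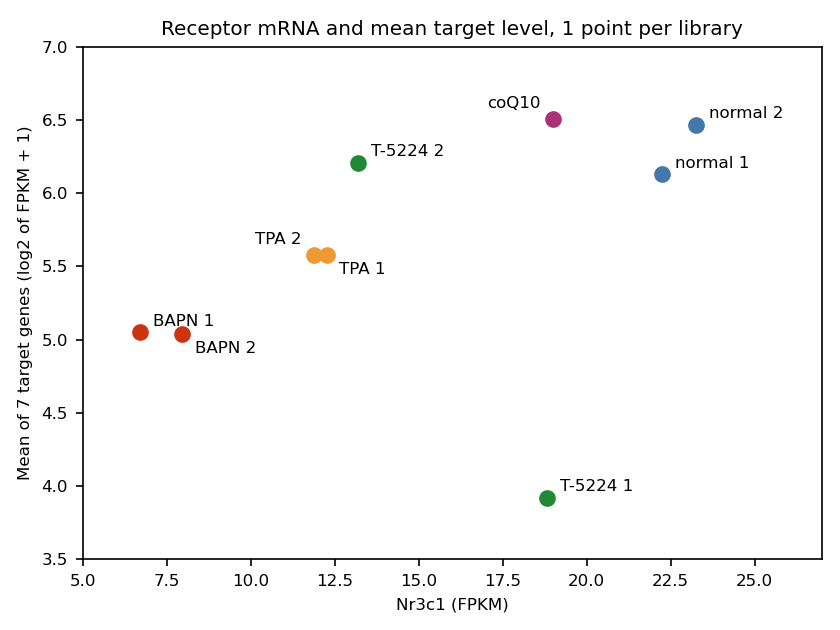
Nr3c1 (x, FPKM) against the mean log2(FPKM + 1) of the 7 targets (y), 1 point per library. T-5224 replicate 1 lies alone at the bottom, at 18.83 FPKM and 3.92, while the 2 BAPN libraries have the lowest Nr3c1.

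The wider pathway was read from gene lists, all chosen with earlier results of these data known, so their counts are a description. Of 31 other glucocorticoid-induced genes tested in BAPN against normal, 1 rose and 1 fell past the limma threshold. Of the 31, 23 had lower means, and the median difference was -1.06. Of all 12997 tested genes, 0.900% rose and 2.36% fell past that threshold, 9419 had lower means, and the median was -0.51. Il1r2, a decoy receptor for interleukin-1, rose from 0.44 and 0.07 FPKM to 27.03 and 15.09 (log2 difference 4.10, SE 0.50, limma adjusted p = 0.032). Foxo3, a forkhead transcription factor, fell from 16.17 and 20.58 FPKM to 3.58 and 2.96 (log2 difference -2.18, SE 0.35, limma adjusted p = 0.0458). Pik3r1 and Foxo1, regulators of insulin signalling, had differences of -1.29 and -1.26 with limma adjusted p of 0.0519 and 0.0532. The call of Il1r2 was lost when any 1 normal, BAPN or TPA library was left out, as was that of Foxo3, which was also lost with median-of-ratios scaling and with haemoglobin left out. Both were also lost without the filter, with only the groups compared and with the replicate block. In limma, 0 of the list passed with TPA, T-5224 or coQ10 against BAPN (7, 3 and 9 of its 31 at an unadjusted p under 0.05, where 1320, 2379 and 2572 of all 12997 were), where its medians were 0.38, 0.34 and 0.86, beside 0.18, 0.35 and 0.39 over all genes.

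Genes that build and regulate the receptor complex had lower means with BAPN, and whether they passed the test depended on the setting. All 20 chaperones and coregulators had lower means in BAPN than in normal aorta, with a median difference of -0.93 and 0 past the limma threshold, although 11 had an unadjusted p under 0.05. Of all 12997 tested genes, 9419 had lower means and 4216 an unadjusted p under 0.05, with a median of -0.51. After rescaling to TPM all 20 passed as lower, as did 9481 of all genes. With either T-5224 library left out 10 did, where 3612 (without replicate 1) and 3672 (without replicate 2) of all genes passed in either direction. With the median-of-ratios scaling 17 of the 20 were lower and the median was -0.35. Ncoa3, a coactivator, was at 20.00 and 34.85 FPKM in normal aorta and 4.84 and 6.69 with BAPN, and Ep300, an acetyltransferase coactivator, at 13.28 and 14.11 against 1.88 and 2.49. The coactivator Ncoa1 and the corepressor Ncor1 had differences of -1.38 and -1.15. On the list of glucocorticoid supply, 6 of 9 genes were tested and 1 fell, H6pd, whose product supplies the cofactor for regenerating active hormone, from 43.09 and 24.10 FPKM to 8.14 and 8.47 (log2 difference -1.84, SE 0.36, limma adjusted p = 0.049). This call was lost with an offset of 0.1, median-of-ratios scaling, haemoglobin left out, no filter, only the groups compared or the replicate block, and when any 1 normal, BAPN or TPA library was left out. The mineralocorticoid receptor gene Nr3c2 was low throughout, at 0.35 to 2.58 FPKM, and the drug efflux pump gene Abcb1b was at 3.36 to 16.85.

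Most of the tested inflammatory genes that glucocorticoids are known to repress rose with BAPN. Of 9 tested, 6 passed, all higher, beside 0.900% of all genes: Il6, Cxcl1, Ccl2, Il1b, Sele and Icam1, with a median of 3.23 over the 9. This list was also chosen with earlier results known, so nothing is read from its count beside that share. The cytokine gene Il6 was at 0 and 0.10 FPKM in normal aorta and 214.97 and 139.93 with BAPN (log2 difference 7.38, SE 0.35, limma adjusted p = 0.00229). Cxcl1, a neutrophil chemokine, was at 3.14 and 1.77 FPKM in normal aorta and 364.51 and 255.19 with BAPN (log2 difference 6.50, SE 0.35, limma adjusted p = 0.00288). The differences were 6.30 (SE 0.42) for the monocyte chemokine Ccl2, 5.56 (SE 0.98) for the cytokine Il1b, 3.23 (SE 0.42) for the adhesion molecule Sele and 3.02 (SE 0.41) for the adhesion molecule Icam1. The other 3 did not pass: Ptgs2, a prostaglandin synthase gene, had a difference of 1.65 (SE 1.16), the adhesion molecule Vcam1 0.82 (SE 0.56), and Nos2, the inducible nitric oxide synthase gene, -1.42 (SE 0.35). Against BAPN, Il6 fell with TPA (7.58 and 12.04 FPKM, limma adjusted p = 0.0324), with T-5224 (1.30 and 1.37, limma adjusted p = 0.00713) and with coQ10 (0.94, limma adjusted p = 0.0129). Cxcl1 fell with T-5224 (4.93 and 7.59 FPKM, limma adjusted p = 0.00959) and with coQ10 (2.76, limma adjusted p = 0.0129), and reached a limma adjusted p of 0.132 with TPA. In both T-5224 libraries Il6 and Cxcl1 were far below BAPN. The 7 targets were low in replicate 1 and higher in replicate 2, and a link between these levels was not tested. Fewer of the 9 passed in BAPN against normal when a library was left out: 2 without normal replicate 1, 3 without normal replicate 2, 0 without BAPN replicate 1, 3 without BAPN replicate 2 and 3 without either TPA library; 7 passed as higher without either T-5224 library. The calls against BAPN were lost without either BAPN library, that of Il6 with TPA also without any 1 normal, TPA or T-5224 library, and those with coQ10 also without any 1 normal or TPA library. The Il6 call with TPA was also lost with TPM, haemoglobin left out, an offset of 0.1, no filter or the replicate block, and that with coQ10 with the offset of 0.1. With T-5224 both calls were lost with only the groups compared and with the replicate block, and that of Cxcl1 without either TPA library. Neutrophil markers, summing to 1886 and 1074 FPKM with BAPN against 31.8 and 25.4 in normal aorta, moved with these genes, and their part was not tested.

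Clock output genes were read because Per1 belongs to the clock. Of 13 tested, 3 fell in BAPN against normal and 10 had lower means, with a median of -2.02. Of all tested genes 2.36% fell past the threshold and 9419 of 12997 had lower means, with a median of -0.51. Tef fell from 73.79 and 85.87 FPKM to 12.53 and 12.77 (limma adjusted p = 0.0256), Hlf from 15.31 and 11.18 to 1.25 and 1.55 and Nr1d2 from 32.52 and 31.73 to 6.55 and 7.35 (both limma adjusted p = 0.0458). Tef and Hlf are clock-controlled activators and Nr1d2 is a clock repressor. All 3 calls were lost when any 1 normal, BAPN or TPA library was left out, with haemoglobin left out of the sum, and with the replicate block, and that of Nr1d2 also with median-of-ratios scaling. With only the groups compared 1 gene of the list passed, which was none of these 3. Nr1d1, a related repressor, was at 50.47 and 35.31 FPKM in normal aorta, 14.61 and 13.19 with BAPN and 120.47 with coQ10, where Per1 was also highest. The T-5224 libraries differed here as well: Dbp, another clock-controlled activator, was at 178.48 FPKM in replicate 1 and 14.57 in replicate 2, while the core activator Arntl was at 0.76 and 14.19 (both picked after their values were seen). Of the 13 clock genes, 4 were higher and 9 lower in T-5224 replicate 2 than in replicate 1, with a median of -0.76. Of all 12997 tested genes, 6121 were higher and 6770 lower, with a median of -0.06. All 7 targets were higher in T-5224 replicate 2, and the part of the clock was not tested.

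Genes most like each of the 8 over the 9 libraries were ranked by Pearson's r of log2(FPKM + 1) among 8772 genes with a mean of at least 5 FPKM, as a description. Nr3c1 was most like Supt7l (0.992), Efcab14 (0.989) and Phf21a (0.986), the only member whose 3 nearest genes were the same with median-of-ratios scaling. Zbtb16 was nearest to Foxo3 (0.972), Snrnp200 (0.970) and Brd2 (0.969), and Klf9 to Fbxo38 (0.986), Mtmr9 (0.974) and Fgd5 (0.974). Sgk1 was nearest to Pecam1 (0.962), an endothelial marker at 113.29 FPKM in T-5224 replicate 1 and 374.73 in replicate 2, then Fam212a (0.950) and Pim3 (0.949). Fkbp5 was nearest to Egln2 (0.961), Rhou (0.960) and Adora2a (0.956), and Tsc22d3 to Slco2b1 (0.961), Agmo (0.944) and Gpr182 (0.941). Per1, with Chd2 (0.891) and Bag3 (0.854) among its nearest, and Errfi1, nearest to Rnf125 (0.869), Sik1 (0.845) and Trp53i11 (0.841), had weaker matches, and none of the 3 named for Errfi1 was kept under the other scaling.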

How the data were processed

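Per the labels' protocols, Trizol was used for the RNA and a TruSeq kit for sequencing libraries. The authors deposited FPKM per gene name, with genes at 0 not listed, and the submitters' processing notes name mm10; the aligner and the counter were not given in the sources used here. Unlisted genes were set to 0. FPKM hold no read counts, so depth and its precision are unknown. Values were transformed to log2(FPKM + 1), and 12997 genes averaging 1 FPKM or more were fitted in limma 3.58.1 (R 4.3.3) with 5 groups, 9 libraries and 4 residual degrees of freedom, an intensity trend and two-sided p-values adjusted by Benjamini-Hochberg, with a threshold of 0.05; the fit was tested on simulated data. Software for tables and figures was pandas 2.3.3, matplotlib 3.10.9 and python 3.11.15. The genes described and all gene lists were chosen with earlier results of these data known. Named from each list were genes past the threshold and, up to 4, those of smallest p in BAPN against normal. Some genes that this rule names are not reported here. Coordinates are RefSeq, GRCm38.p6. The label of the coQ10 library is spelled differently and was read as coQ10. Alternatives were other scalings (median of ratios, TPM, haemoglobin left out), an offset of 0.1, no filter, only the groups compared, a replicate block and leaving out in turn each library of the 4 groups with 2.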

Additional observations from a re-analysis of the deposited data

How the results depend on the processing

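Counts of genes past the threshold depended on most choices. BAPN against normal gave 424 genes, and 226 with median-of-ratios scaling (196 higher, 30 lower, against 117 and 307 as deposited), 9637 after rescaling to TPM (156 higher, 9481 lower), 33 with haemoglobin left out (30 higher, 3 lower), 152 with an offset of 0.1, 53 without the filter and 55 with only the groups compared. TPA gave 5, also with median-of-ratios scaling, and 2 with TPM, 2 with haemoglobin left out, 0 with the offset of 0.1 (1269 at an unadjusted p under 0.05 in limma), 9 without the filter and 1032 with only the groups compared. T-5224 gave 4, and 35, 3168, 2, 2 and 2 in the order median of ratios, TPM, haemoglobin, offset and filter, and 0 with only the groups compared (1354 unadjusted in limma). coQ10 gave 2, also with haemoglobin left out, and 10, 7328, 1 and 7 with median of ratios, TPM, offset and no filter, and 1247 with only the groups compared. Leaving out 1 library of a group with 2 gave 0 to 3672, 0 to 9, 0 to 80 and 0 to 176 genes; the highest count for BAPN against normal came without T-5224 replicate 2, and without T-5224 replicate 1 it was 3612. Leaving out normal replicate 1 and T-5224 replicate 2 together, chosen after seeing the data, gave 4087, 1052, 2341 and 3045. A replicate block left 8, 2 and 0 genes for BAPN, TPA and T-5224 (1972 unadjusted in limma for T-5224); coQ10 has 1 library and could not be fitted with the block. Deviations of same-numbered libraries from their group means had correlations of -0.44 to 0.18 between groups. With 1 pair of libraries per group, these cannot tell whether the numbers mark a shared batch. The median of all genes in BAPN against normal was -0.51, -0.01 with median of ratios, -1.92 with TPM and -0.43 with haemoglobin left out. The cause of these shifts was not tested. Single genes were labelled by different rules. A value of the 8 genes counted as same within 1 standard error of the main value, and otherwise as moved. Such a value could change its sign or side of the threshold and still count as same. Values of the other named genes counted as same when direction and side of the threshold were kept. In all, 723 values were the same and 50 moved, and among the other named genes 130 lost and 31 gained the call. Unknown depth limits values near 0.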

Other observations

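Hsd11b1, whose enzyme regenerates active glucocorticoid inside cells, differed widely within the normal and T-5224 pairs and little within the BAPN and TPA pairs. It was picked after its values were seen. It stood at 38.41 and 2.60 FPKM in normal aorta, 8.24 and 7.74 with BAPN, 32.78 and 37.51 with TPA, 4.04 and 68.04 with T-5224 and 29.28 with coQ10. White adipocyte markers summed to 12030 and 4074 FPKM in the normal libraries and to 1106 and 19100 with T-5224, the same order as Hsd11b1 within each pair. They summed to 4494 and 3099 with BAPN and to 3152 and 4302 with TPA. These ranges overlapped, while Hsd11b1 was higher in both TPA libraries than in both BAPN libraries. Most of each sum was Fabp4 alone. In the T-5224 pair Adipoq, Cidec and Retn had that order too, while Plin1 and Lep had the opposite order. The metallothionein genes Mt1 and Mt2, metal-binding proteins that glucocorticoids and inflammation are both known to induce, were higher in both BAPN libraries than in both normal libraries. Mt2 stood at 318.97 and 692.46 FPKM in normal aorta, 6736.68 and 3627.06 with BAPN, and 414.08 and 4414.17 with T-5224, and Mt1 at 927.63 and 1113.05, 5447.85 and 3214.74, and 663.30 and 6499.38.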
